A study of Mus musculus with 6 samples.

Results

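The regions described here were stretches of mouse chromatin called open in every one of 6 bone marrow ATAC-seq libraries and lying at an end of a protein-coding gene. ATAC-seq marks open DNA by letting a transposase insert adapters into it, and stretches with many insertions are called as peaks. Peaks of the 6 lists were merged wherever they overlapped by at least 1 bp. A merged region was kept when each of the 6 lists had a peak in it and when it lay no farther than 1 kb from the start or the far end of a RefSeq protein-coding gene (mm10). This left 9627 constitutive gene-end regions of 69171 merged regions (13.92%). They made up 47.03% of the 20468 regions called in all 6 lists, and the other 10841 lay away from gene ends. The regions were thus chosen by the presence of a peak in every list and by the distance to a gene, and neither is a finding. A region is named by the gene whose end is nearest.

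All cells came from the marrow of naive Adig mice on the Balb/c background. These mice express GFP under the control of Aire, the autoimmune regulator of the thymus, from a transgenic copy of the locus, and the sorted controls carry the same transgene. Among GFP negative cells, plasma cells had the surface AireGFP-B220-CD138+TACI+ and immature B cells AireGFP-B220+CD138-TACI-IgM+. The GFP positive cells with the plasma cell surface (AireGFP+B220-CD138+TACI+) carry the name pc-BMACs in the labels. Each population had 2 libraries, from 2000 to 15000 sorted cells. Whether 2 libraries came from different mice is not in the labels, so p-values measure only the spread between these samples, which may be technical. The files hold peak positions with no reads, so depth is unknown, and the measure available for each region and library was its covered width, the number of its bases under peaks. Covered width is a property of the peak calls and is not a count of reads. The narrowest peak of every list was 150 bp, so no region could have a covered width below that. Single libraries at Slc37a2, Tubb6, Cd9 and the transcript end of Ebf1 below stood at this floor, which bears on their differences. The lists are named as intersected peaks, with no word on what was intersected.

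As background, most vertebrate genes that are active in every cell start in a CpG island, a stretch rich in C, G and the CG dinucleotide that stays free of nucleosomes just before the first transcribed base. Such promoters often hold sites for broadly present factors, among them Sp1 and its relatives at GC boxes, NF-Y at CCAAT boxes, NRF1, YY1 and the ETS family. Promoters of strongly induced or tissue-restricted genes hold a TATA box more often. Plasma cells keep an enlarged endoplasmic reticulum (ER) for antibody secretion under Irf4, Prdm1 and Xbp1, while Pax5 and Ebf1 hold the identity of B cells.

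The promoter windows of 7 genes, picked for their motifs, are printed as examples and are not a typical sample. Their GC content ran from 44.0% to 63.7%, against a median of 62.0% over all promoter windows at the regions. The TATA box printed for Aire and Irf4 was in 5.97% of those windows. Each window spans 300 bases, from 250 before the annotated start to 50 after it, read 5′ to 3′ on the gene's own strand (RefSeq, GRCm38.p6, the assembly called mm10). Capitals mark matches on either strand to the searched motifs. Aire and Irf4 were printed as a TATA promoter without and with GC boxes, Trappc3 for its ETS and NRF1 matches, and E2f3 for CCAAT boxes with an E2F match. H2ac13 stands for the histone promoters, Cct5 for a chaperone gene with an NRF1 match, and Hspa5, chosen after its values were seen, for an ER stress response element. The windows lie at chr10:78043561-78043860 (minus strand, Aire), chr13:30748983-30749282 (plus, Irf4), chr4:126262155-126262454 (plus, Trappc3), chr13:29986014-29986313 (minus, E2f3), chr13:21716162-21716461 (plus, H2ac13), chr15:31601797-31602096 (minus, Cct5) and chr2:34771840-34772139 (plus, Hspa5).
Aire: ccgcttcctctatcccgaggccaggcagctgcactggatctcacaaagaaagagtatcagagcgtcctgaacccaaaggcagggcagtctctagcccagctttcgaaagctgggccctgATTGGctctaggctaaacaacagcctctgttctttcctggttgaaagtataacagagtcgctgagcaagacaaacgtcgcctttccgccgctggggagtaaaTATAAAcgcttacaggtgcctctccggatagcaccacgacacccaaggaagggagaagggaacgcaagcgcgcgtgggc
Irf4: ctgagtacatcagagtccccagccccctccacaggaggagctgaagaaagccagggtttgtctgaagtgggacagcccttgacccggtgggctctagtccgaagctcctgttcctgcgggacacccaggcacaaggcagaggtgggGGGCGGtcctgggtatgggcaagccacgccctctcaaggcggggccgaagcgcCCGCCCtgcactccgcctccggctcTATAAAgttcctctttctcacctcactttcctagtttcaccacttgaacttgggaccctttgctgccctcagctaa
Trappc3: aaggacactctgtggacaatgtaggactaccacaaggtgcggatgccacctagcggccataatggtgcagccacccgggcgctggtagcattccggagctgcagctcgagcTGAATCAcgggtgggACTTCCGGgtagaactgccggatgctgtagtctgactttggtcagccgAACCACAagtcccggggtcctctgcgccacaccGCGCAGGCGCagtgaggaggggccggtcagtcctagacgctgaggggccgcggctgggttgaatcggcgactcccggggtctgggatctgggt
E2f3: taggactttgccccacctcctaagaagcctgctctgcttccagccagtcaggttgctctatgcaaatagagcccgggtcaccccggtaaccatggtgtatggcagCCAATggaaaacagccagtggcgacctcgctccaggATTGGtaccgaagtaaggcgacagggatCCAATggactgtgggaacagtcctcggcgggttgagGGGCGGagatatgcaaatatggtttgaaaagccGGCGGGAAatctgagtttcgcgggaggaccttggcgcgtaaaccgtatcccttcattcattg
H2ac13: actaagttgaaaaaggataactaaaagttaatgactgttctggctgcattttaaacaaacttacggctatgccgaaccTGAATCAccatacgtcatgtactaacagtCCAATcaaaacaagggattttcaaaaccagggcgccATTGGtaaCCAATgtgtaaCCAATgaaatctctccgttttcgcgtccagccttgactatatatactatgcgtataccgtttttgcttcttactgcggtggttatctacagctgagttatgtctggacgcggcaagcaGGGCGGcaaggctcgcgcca
Cct5: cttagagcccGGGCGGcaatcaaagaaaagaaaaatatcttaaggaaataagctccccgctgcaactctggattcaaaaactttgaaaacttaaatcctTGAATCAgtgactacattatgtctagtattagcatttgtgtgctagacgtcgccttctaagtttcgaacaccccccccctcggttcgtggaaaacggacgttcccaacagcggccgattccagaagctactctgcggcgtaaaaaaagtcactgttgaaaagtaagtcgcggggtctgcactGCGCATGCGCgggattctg
Hspa5: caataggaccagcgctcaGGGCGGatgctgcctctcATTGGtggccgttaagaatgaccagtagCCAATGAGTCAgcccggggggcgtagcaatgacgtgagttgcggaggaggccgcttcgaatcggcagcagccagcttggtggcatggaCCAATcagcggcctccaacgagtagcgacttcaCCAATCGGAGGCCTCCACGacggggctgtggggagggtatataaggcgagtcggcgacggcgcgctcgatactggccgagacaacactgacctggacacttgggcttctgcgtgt

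In the Aire window the letters TATAAA ran from 29 to 24 bases before the start, and in the Irf4 window from 26 to 21 bases before it. Irf4 also had 2 GC boxes, while Aire had 1 CCAAT box on the opposite strand and no GC box. Trappc3 had its ETS match at bases 124 to 117 before the start and its NRF1 match at 43 to 34 before it. E2f3 held 3 CCAAT boxes, 1 GC box and an E2F match that ended 5 bases before the start, and H2ac13 held 4 CCAAT boxes. Hspa5, the ER chaperone BiP, had 4 CCAAT boxes, of which the one nearest the start opened the ER stress response element and another shared 1 base with an AP-1 match. A match describes letters and shows no binding.

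Promoters at the regions were rich in CpG and in the motifs of broadly present factors. The RefSeq table held windows and strand for 17491 of the 21883 protein-coding genes and for 8660 of the 10672 genes with a region. A window was counted as lying at a region when the start was inside it or within 1 kb of it, which gave 9392 windows of 8127 genes. Their median GC content was 62.0%, against 48.3% in 8790 windows with no region of any list within 1 kb and 52.7% in all 32851 windows of the table, which include non-coding genes. Over the 21262 windows of protein-coding genes it was 56.3%, and in the 3080 windows with some other region, but none of the 9627, within 1 kb it was 58.7%. The median ratio of observed to expected CG dinucleotides was 0.80 at the regions, 0.216 where no region was called, 0.384 in the whole table, 0.567 over protein-coding genes and 0.587 at other regions. A ratio over 0.6 was found in 79.9%, 12.8%, 35.8%, 47.6% and 48.7% of the windows, respectively.

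Motifs were searched on both strands. The GC box was read as GGGCGG, the TATA box as TATAAA, the E-box as CACGTG, the ETS site as CCGGAAGT, the YY1 site as AAGATGGCG and the CCAAT box as its own name spells it. The CRE was read as TGACGTCA, the E2F site as TTCCCGCC, the AP-1 site as TGANTCA and the RUNX site as TGTGGTT. The NRF1 site was GCGC followed, after any 1 base, by TGCGC, and the ISRE and a CTCF core were searched as well. Added after the data were seen were the ER stress response element (CCAAT and CCACG with any 9 bases between them), which contains a CCAAT box, and the unfolded protein response element TGACGTGG. A GC box was in 68.87% of the windows at the regions, 19.22% of those without any region and 35.66% of all, and it was in 46.2% of protein-coding windows and 54.09% of those at other regions. The ETS letters were in 9.90%, 0.76% and 3.89%, and the NRF1 letters in 11.99%, 0.86% and 4.60%. YY1 letters were in 3.64%, 0.19% and 1.40%. Over protein-coding windows the ETS, NRF1 and YY1 shares were 5.15%, 6.38% and 1.83%, and at other regions 3.15%, 5.0% and 1.01%. The TATA box ran the other way, with 5.97% of the windows at the regions, 21.3% of those without and 13.62% of all, and with 12.6% of protein-coding windows and 7.99% of those at other regions. AP-1 letters did too, with 3.73%, 10.48% and 7.81%, while CCAAT boxes were about equally common in the 3 classes, at 39.49%, 38.75% and 37.41%. Over protein-coding windows the AP-1 and CCAAT shares were 6.99% and 38.19%, and at other regions 6.98% and 32.63%. GC content differed between the classes, and its part in the motif shares was not tested. The ER stress response element was in 14 windows at the regions and 13 without one. Its share was 0.15% in both classes and 0.14% over protein-coding windows, so it did not set the regions apart. The windows at the regions that held it included those of the ER chaperone genes Hspa5, Calr, Hsp90b1, Canx, Pdia6 and Dnajc3. The genes of the windows without a region are not listed here.

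The regions lay at close to every gene of the basic machinery of the cell and at close to none of several tissue-restricted families. In all, 10672 of 21883 protein-coding genes (48.77%) had a region at an end. All 8 subunit genes of the CCT chaperonin, which folds actin and tubulin, and all 26 genes of cell cycle and DNA replication on the list had one. So did 36 of 37 nuclear genes of mitochondrial complex I, 39 of 41 of RNA polymerase II and its general factors, 37 of 38 of the secretory pathway and unfolded protein response, 70 of 75 of the mitochondrial ribosome, 37 of 40 of the proteasome and 74 of 81 of the cytosolic ribosome. The 3 proteasome genes without one were Psma6, Psma8 and Psmb11, the last of which encodes the subunit particular to the thymus cortex. Rpl10l and Rpl39l, copies of ribosomal protein genes, had no region of any list at their ends. Genes of the Zfp family, most of which encode zinc finger repressors, had one in 254 of 367.

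**Figure D1:**
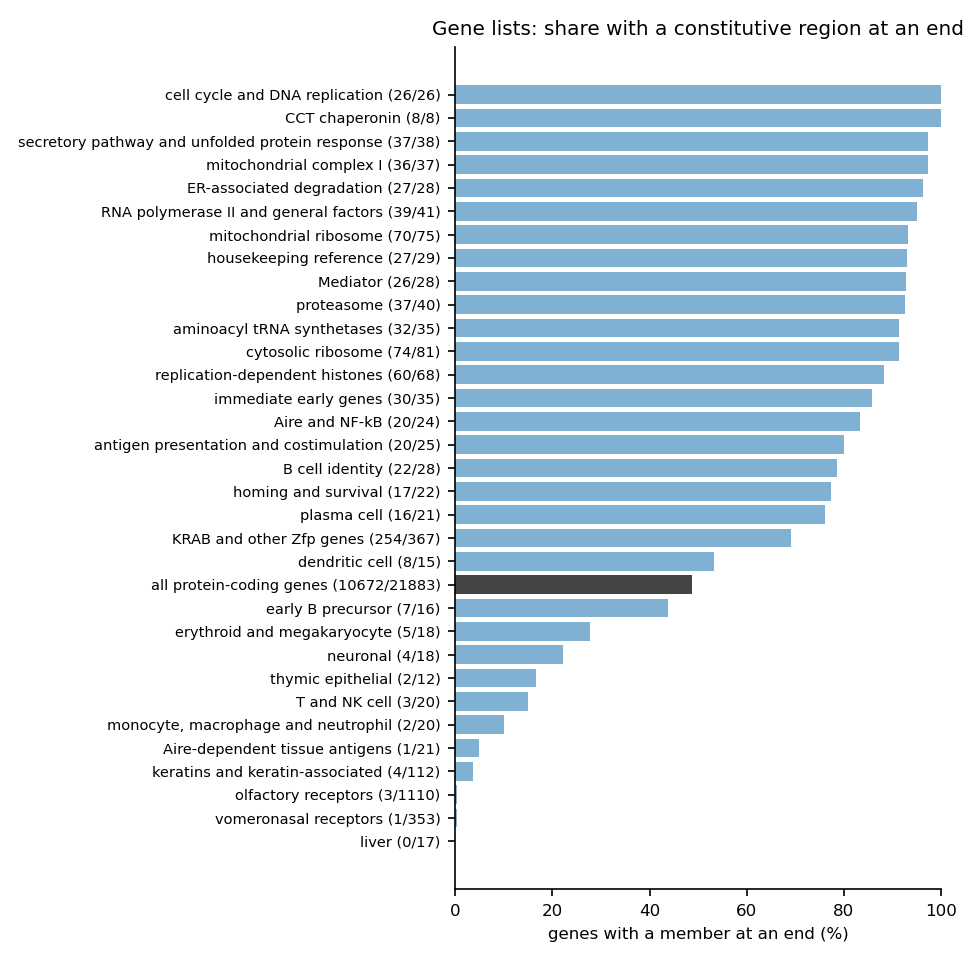
Share of the genes of each list that had a constitutive region within 1 kb of an end, in percent, with genes with a region over genes on the list in brackets. The dark bar is the share over all 21883 protein-coding genes (48.8%), housekeeping machinery lies above 90%, and olfactory and vomeronasal receptor genes lie near 0.

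Of 1110 olfactory receptor genes, 3 had a region (Olfr433, Olfr374 and Olfr314), with mean covered widths of 459.7, 392.2 and 375.3 bp. Of 353 vomeronasal receptor genes 1 had one, and of 17 liver genes none did. Among 112 genes matched by the keratin prefix 4 had one, and 2 of these were Krtcap2 and Krtcap3, which are not keratins. Markers of other blood lineages ranged from sparse to common. Regions were found at 3 of 20 T and NK cell genes (Cd3d, Lat and Cd4), 2 of 20 genes of monocytes, macrophages and neutrophils (Spi1 and Cebpa) and 5 of 18 erythroid and megakaryocyte genes (Tfrc, Gfi1b, Klf1, Nfe2 and Epor). Of 15 dendritic cell genes 8 had one (Bst2, Tcf4, Irf8, Xcr1, Flt3, Batf3, Irf7 and Ccr7; 53.3%, against 48.8% of all genes), while Itgax and Cd209a had no region of any list. Lyz2, Elane and Mpo of the myeloid genes, Cd3e and Cd8a of T cells and Gata1 and Alas2 of the erythroid genes had no region of any list at an end. Of 21 tissue antigens under Aire control in the thymus, Apoa2 alone had a region in all 6 lists, and G6pc2, the islet antigen, had one in at most 2 lists. By chromosome, the share of genes with a region was highest on chromosome 11 (59.2%) and lowest on X (30.3%) and Y (0.4%, 1 of 256 genes).

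The regions sat over gene starts far more than over transcript ends. Strand was known for the gene ends of 7945 regions, and 7429 of these (93.51%) lay at a start, 612 of them at an end of a transcript as well, while 516 lay at a transcript end and at no known start. Of the 17491 genes with a known strand, 8324 (47.59%) had a region at the start, 1248 (7.14%) at the transcript end and 912 at both. Genes with a region at both ends were shorter, with a median length of 10003.5 bp against 21790.5 bp for all genes with a region at the start, and in 255 of them 1 region spanned both ends. Most regions overlapped the gene end itself (8564, 88.96%). Peaks reached farther into the gene than before it. A peak covered over 50% of these starts from 300 to 450 bp before the start, depending on the library, to 550 to 750 bp after it.

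**Figure D2:**
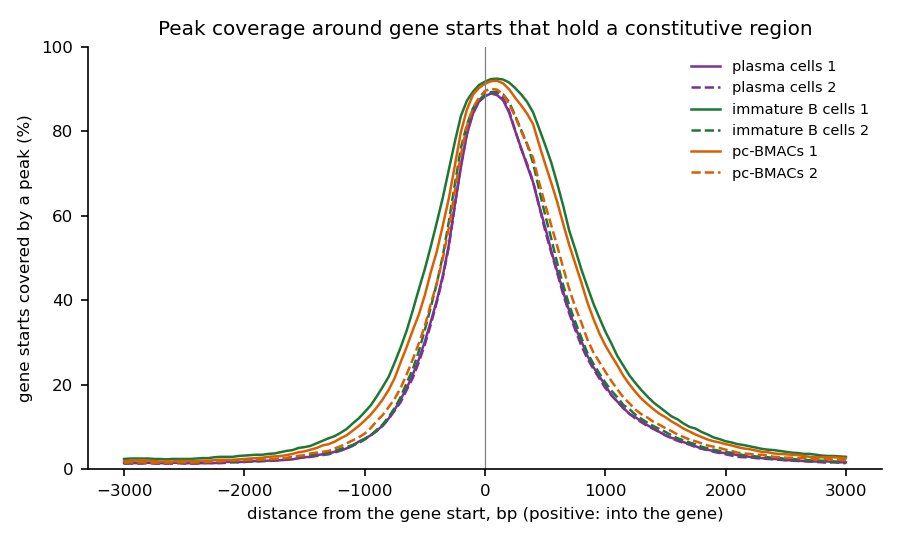
Percentage of the 8324 gene starts with a constitutive region that were covered by a peak, by distance from the start in bp (positive into the gene), with 1 line per library. At the start itself the 6 libraries lie between 88.3% and 91.8%, and every line falls more slowly on the side of the gene.

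Some regions lay at more than 1 gene. At least 2 protein-coding genes had an end at 1843 regions (19.14%), with starts and transcript ends counted alike. The starts of a pair of genes on opposite strands were at 894 regions (9.29%). In 565 of these the genes pointed away from each other, with a median gap of 104 bp between the starts. The regions with opposite starts were wide, at a median of 1257.6 bp of mean covered width, against 1063.2 bp for other starts and 693.6 bp for transcript ends without a start. The largest number of genes at 1 region was 5, at Tomm6, a subunit gene of the mitochondrial import pore, with Prickle4, Frs3, Gm20517 and Usp49. Another region had 4, at Mrps34 of the mitochondrial ribosome with Eme2, Nme3 and Mapk8ip3.

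The regions were wide and overlapped between libraries over most of their length. Their median width was 1368 bp (interquartile range 1023 to 1842, from 248 to 37127), and that of constitutive regions away from gene ends was 924 bp. A core of bases under peaks of all 6 lists was found in 9585 regions (99.56%), with a median length of 803 bp, and 42 regions joined peaks with no base common to all lists. In 9320 regions (96.81%) each list had a peak of its own within 1 kb of the gene end. The remaining 307 qualified in some lists only through a peak joined to the region farther out.

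Covered width differed between libraries as a whole, and the 2 libraries of immature B cells stood furthest apart. The median over the regions was 945 and 939 bp in plasma cells 1 and 2, 1266 and 999 bp in immature B cells 1 and 2, and 1170 and 1029 bp in pc-BMACs 1 and 2. Plasma cells were lowest, and the ranges of immature B cells and pc-BMACs overlapped. The regions took up 18.9% to 29.7% of the peaks of a list and 36.8% to 47.3% of its covered bases. Libraries were therefore centred on their median log2 covered width over all 20468 constitutive regions before groups were compared. After centring, the spread over the 6 libraries had a median of 0.52 on the log2 scale at gene ends and 0.90 away from them. It exceeded 2-fold in 15.16% of the gene-end regions and 43.21% of the others. The median absolute log2 difference between the 2 libraries of a group was 0.11 in plasma cells, 0.24 in immature B cells and 0.17 in pc-BMACs.

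Several of the widest regions lay at genes of lymphocyte fate and of the immediate early response. Irf4, which drives plasma cell fate, had 6107 and 7758 bp covered in plasma cells, 7573 and 4529 bp in immature B cells and 14968 and 10329 bp in pc-BMACs. Zfp36, an mRNA decay factor, had 5156 and 1438, 12611 and 7883, and 12365 and 11431 bp, and Jund, a subunit of AP-1, had 7387 and 6368, 3869 and 6088, and 11182 and 11194 bp, in the same order. At Irf4 and Jund both pc-BMAC libraries were above the other 4, and at Zfp36 they lay within the range of immature B cells. Spib, a B cell ETS factor, went the other way, with 3354 and 4910 bp in plasma cells, 10527 and 10136 bp in immature B cells and 4542 and 3369 bp in pc-BMACs. The other regions among the 10 widest were named by Pfkl, Icosl, Frmd8, Egr3, Trib1 and Ier2. The narrowest were at Ttll1, Fmod and Mid2, with mean covered widths of 182.5, 194.8 and 197.3 bp. At the 1 kb limit, regions just inside lay 999 bp from Lif and 998 bp from Tac4, and those just outside lay 1001 bp from Ssc5d and 1002 bp from Gm8439. Lif had 331 to 600 bp covered and Ssc5d 360 to 711 bp.

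Between pc-BMACs and plasma cells, few of the regions differed in width. By limma with Benjamini-Hochberg adjustment over all 20468 constitutive regions, 277 of 9627 passed (adjusted p below 0.05), 168 wider and 109 narrower in pc-BMACs. Of all constitutive regions 5.3% passed, 2.65% in each direction, so the share at gene ends (2.88%) was below the background, and away from gene ends it was 7.45%. The median difference was -0.06 at gene ends. Without centring, the count was 40, with 32 wider and 8 narrower, and the median difference was 0.18, since library medians of pc-BMACs exceeded those of plasma cells by 0.24. A block was also fitted for the R number in the sample descriptions, called the sample number below. Libraries of different populations share such numbers, and what they mark is not given. With this block 0 passed. Without pc-BMACs 1 the count was 132 (57 wider, 75 narrower) and without pc-BMACs 2 it was 80 (39 and 41).

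The 5 wider regions with the smallest adjusted p lay at Rims2, Ache, Trappc3, Herpud1 and E2f3. The region over the transcript end of Herpud1, an ER membrane protein that unfolded proteins induce, at chr8:94389198-94399471, had 2357 and 2215 bp covered in plasma cells, 805 and 650 bp in immature B cells and 10274 and 9592 bp in pc-BMACs. The groups did not overlap, and pc-BMACs were wider than plasma cells by 1.88 ± 0.15 (log2, SE; adjusted p = 0.00116). In 4 of 6 lists a peak lay within 1 kb of the gene end itself. The region at the Herpud1 start differed less, with 2670 and 2428 bp in plasma cells and 3604 and 3813 bp in pc-BMACs (log2 difference 0.30, adjusted p = 0.434).

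At the start of Trappc3, a subunit of the TRAPP complex that tethers vesicles between ER and Golgi, plasma cells had 737 and 722 bp, immature B cells 948 and 862 bp and pc-BMACs 3752 and 3560 bp. Ache, the acetylcholine esterase, had 273 and 226, 627 and 363, and 2028 and 1878 bp, and Rims2, a scaffold of synaptic vesicle release, had 417 and 273, 723 and 664, and 2850 and 2808 bp. Own peaks within 1 kb of the gene end were present in all 6 lists at Trappc3, in 3 at Ache and in 5 at Rims2. At these 3 genes pc-BMACs stood above both other populations without overlap, and the log2 differences from plasma cells were 2.08 ± 0.16, 2.73 ± 0.21 and 2.83 ± 0.23 (SE; adjusted p = 0.00116 each). E2f3, a cell cycle factor whose promoter is printed above, had 894 and 856 bp in plasma cells, 3888 and 2879 bp in immature B cells and 3817 and 3301 bp in pc-BMACs. There plasma cells stood alone as narrow (log2 difference 1.78 ± 0.14, adjusted p = 0.00116).

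Among the narrower regions, 1 lay inside the gene Slc37a2, which encodes a sugar phosphate exchanger of the ER, near its transcript end. It had 874 and 849 bp in plasma cells, 1062 and 1043 bp in immature B cells and 201 and 150 bp in pc-BMACs (log2 difference from plasma cells -2.55 ± 0.22 SE, adjusted p = 0.00117). The start of Plcb4, a phospholipase C, had 1453 and 1452, 1666 and 1615, and 473 and 342 bp, and that of Iqgap2, a cytoskeletal scaffold, had 2222 and 1909, 2210 and 1448, and 874 and 656 bp. Lrrc32, which tethers latent TGF-beta at the cell surface, had 1402 and 1614, 4168 and 3485, and 500 and 532 bp. In all 4 the pc-BMAC libraries were the narrowest and overlapped neither other population. For Lrrc32 the difference lost its call when the widest single peak of each list was used (-0.42), and for Iqgap2 (-1.44) and H2ac13, described next, without centring.

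**Figure D3:**
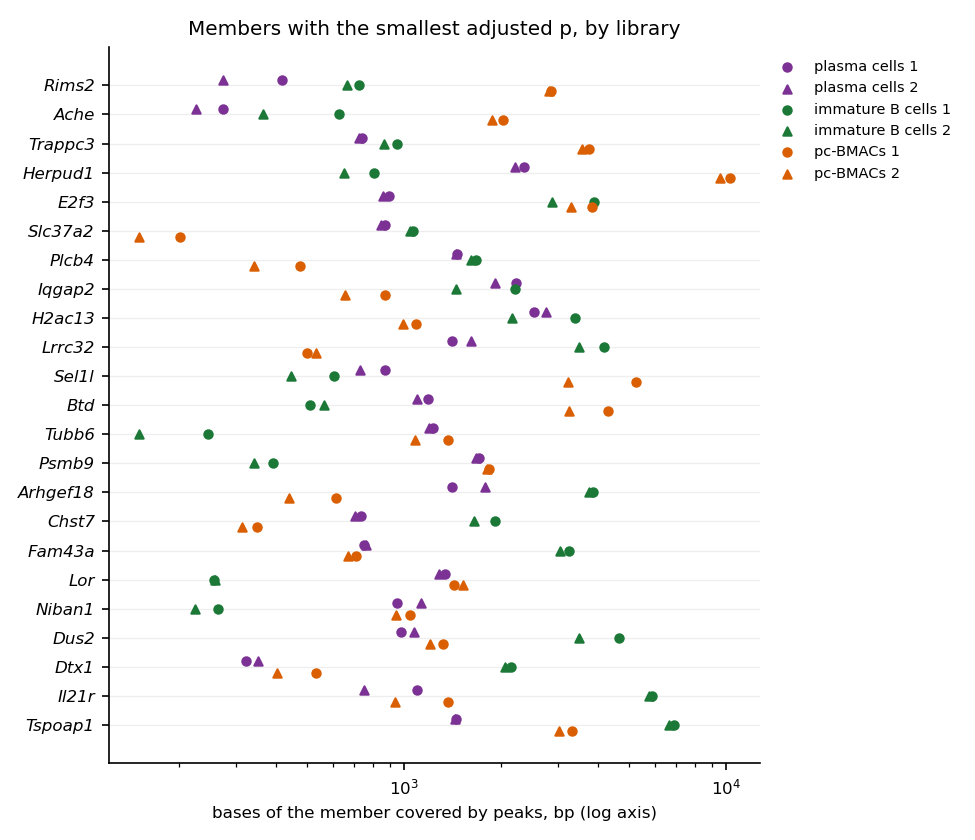
Bases of each region covered by peaks, in bp on a log axis, for the regions with the smallest adjusted p in each comparison and direction, with 1 point per library. At Herpud1 the pc-BMACs lie at 10274 and 9592 bp and immature B cells at 805 and 650 bp, and at Il21r immature B cells stand alone as wide.

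Histone genes were the list with most narrower regions in pc-BMACs than in plasma cells. The replication-dependent and linker histone genes lie in dense clusters, and 60 of 68 genes fell into 35 regions. Of these, 14 were narrower in pc-BMACs and 0 wider, where 2.65% of all constitutive regions passed in that direction, and the median difference was -0.62 against -0.06 over all gene-end regions. The median covered width of the 35 regions was 1752 and 1878 bp in plasma cells, 1849 and 1577 bp in immature B cells and 1359 and 1211 bp in pc-BMACs. Both pc-BMAC libraries were below the other 4. The region of H2ac13, H2bc13 and H3c10, whose promoter is printed above, had 2528 and 2757 bp in plasma cells, 3384 and 2168 bp in immature B cells and 1085 and 988 bp in pc-BMACs (log2 difference from plasma cells -1.59 ± 0.15, SE; adjusted p = 0.00143). That of H2ac4 and H3c2 had 1675 and 2060, 2091 and 622, and 503 and 441 bp, so that 1 immature B cell library lay close to pc-BMACs (log2 difference from plasma cells -2.22, adjusted p = 0.00964). This call was lost without centring and without pc-BMACs 1 (-2.19) or pc-BMACs 2 (-2.25). Without centring no histone region passed and the median was -0.38, without pc-BMACs 1 or pc-BMACs 2 there were 3 and 2, without plasma cells 2 there were 7, and with the block by sample number there were 0. Histone copies are nearly identical in sequence, and the placing of reads with several matches is not given in the sources used here. Over the 26 genes of cell cycle and DNA replication, 1 of 28 regions was narrower and 0 were wider, with a median of -0.22.

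**Figure D4:**
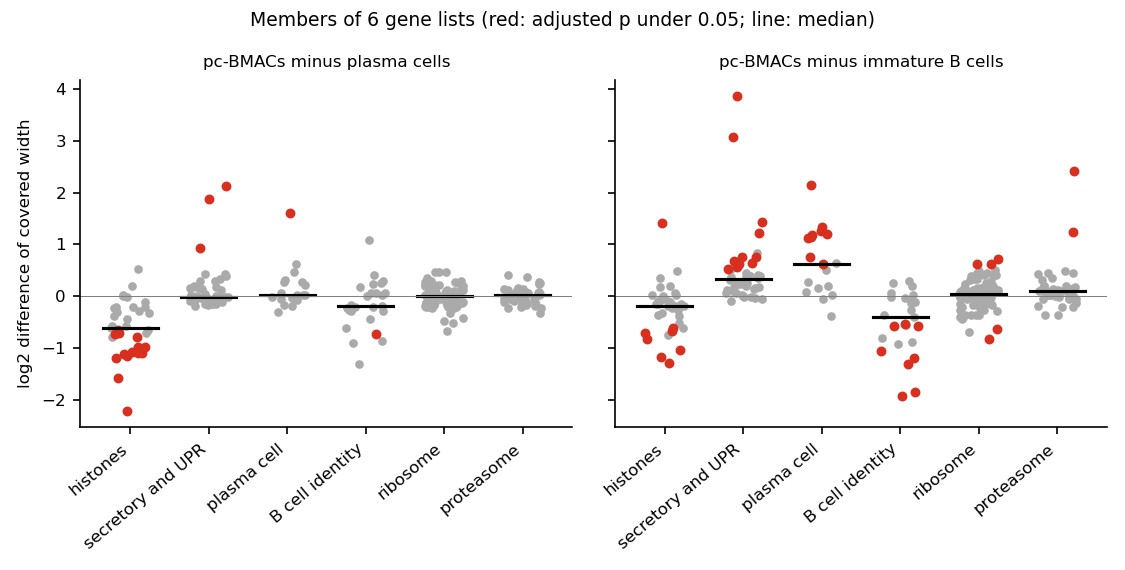
Log2 difference of covered width for the regions of 6 gene lists, pc-BMACs minus plasma cells on the left and minus immature B cells on the right, with 1 point per region, red where the adjusted p was below 0.05, and the median as a line. Most histone regions lie below 0 on the left (median -0.62, 4 of 35 above 0), 16 of 18 regions of plasma cell genes lie above 0 on the right (median 0.62), and ribosome and proteasome regions lie around 0.

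Between pc-BMACs and immature B cells, 967 regions passed, 581 wider and 386 narrower in pc-BMACs (10%). The background over all constitutive regions was 18% (9.11% wider and 8.89% narrower), and away from gene ends 25.1% passed. The median difference at gene ends was 0.05. Without centring the count was 363, with 184 wider and 179 narrower and a median of -0.05, and with the block by sample number it was 403. Without pc-BMACs 1 it was 613 and without pc-BMACs 2 it was 484. The comparison shares its pc-BMAC libraries with the one above, so the values of a gene in both are given side by side and are not independent.

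The list of the secretory pathway and unfolded protein response had 42 regions. Of these, 11 were wider and 0 narrower in pc-BMACs than in immature B cells, 31 did not pass, and the median was 0.34. Against plasma cells 3 were wider and 0 narrower, with a median of -0.01 (0.23 without centring). Over all constitutive regions the shares were 9.11% wider and 8.89% narrower against immature B cells, and 2.65% each way against plasma cells. The transcript end of Herpud1 had the smallest adjusted p of the comparison (log2 difference 3.87 ± 0.15, SE; adjusted p = 1.16e-05). The transcript end of Sel1l, the adaptor of the ubiquitin ligase that clears misfolded proteins from the ER, had 872 and 731 bp in plasma cells, 605 and 445 bp in immature B cells and 5242 and 3224 bp in pc-BMACs (log2 difference from immature B cells 3.08 ± 0.18, adjusted p = 6.12e-05). The pc-BMACs overlapped neither population there, and in 2 of 6 lists a peak lay within 1 kb of the gene end itself. The Sel1l start had 1056 and 1069, 1125 and 963, and 1232 and 1100 bp. The Hspa5 start, printed above with its stress element, had 1371 and 1349, 1832 and 1669, and 1777 and 1430 bp, and its log2 difference from immature B cells was -0.04 (adjusted p = 0.904). The count of wider secretory regions was 4 without centring, 5 without pc-BMACs 1, without pc-BMACs 2 or with the block by sample number, and 6 without immature B cells 1.

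The plasma cell gene list had 18 regions at 16 of 21 genes, with a median of 0.62 against immature B cells. Of these, 9 were wider and 0 narrower in pc-BMACs than in immature B cells (9.11% and 8.89% of all constitutive regions). Against plasma cells 1 was wider and 0 narrower (2.65% of all each way). The start of Ell2, an elongation factor that promotes the secreted form of immunoglobulin mRNA, had 3645 and 3256 bp in plasma cells, 1863 and 1651 bp in immature B cells and 4175 and 4087 bp in pc-BMACs (log2 difference from immature B cells 1.33 ± 0.17, adjusted p = 0.00108). Xbp1, the factor of the unfolded protein response, had 2457 and 2506, 1980 and 1814, and 3086 and 2891 bp (0.75 ± 0.16, adjusted p = 0.0121). In both genes each library of either CD138+ population was above both immature B cell libraries. Irf4 was wider in pc-BMACs as well (1.18 ± 0.29, adjusted p = 0.0231). The calls held in 15 of 15 alternatives for Ell2 and 13 of 14 for Xbp1 (not without pc-BMACs 2). For Irf4 it held in 8 of 14, and it was lost without either pc-BMAC library, without immature B cells 2 and without centring. The 1 region wider than in plasma cells lay at the transcript ends of Txndc5, an ER disulfide isomerase, and of its neighbour Bmp6, where 1 of 6 lists had a peak within 1 kb, with 1289 and 1487, 1218 and 1213, and 7136 and 3511 bp (log2 difference from plasma cells 1.61, adjusted p = 0.00964, lost without centring). Sdc1, which encodes the sorting marker CD138, had 1392 and 2395, 2273 and 1418, and 2858 and 2406 bp, and Prdm1 had 439 and 491, 973 and 545, and 489 and 564 bp, and neither passed in any of the 3 comparisons, though Sdc1 passed against immature B cells in 3 of 14 alternatives, among them those without plasma cells 1 or 2. Tnfrsf13b, which encodes the sorting marker TACI, Tnfrsf17 and Jchain had a region at an end in at most 4 lists and are not among the regions. The count for the list was 4 without centring, 5 without pc-BMACs 2 and 5 with the block by sample number.

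B cell identity genes had 25 regions at 22 of 28 genes, with a median of -0.40 against immature B cells. Of these, 8 were narrower and 0 wider in pc-BMACs than in immature B cells (8.89% and 9.11% of all constitutive regions). Against plasma cells 1 was narrower (2.65% of all), with a median of -0.20 that became 0.04 without centring. Cd79b, a chain of the B cell receptor, had 1427 and 1660 bp in plasma cells, 6126 and 3457 bp in immature B cells and 965 and 1452 bp in pc-BMACs (log2 difference from immature B cells -1.86 ± 0.26, adjusted p = 0.00159). Ms4a1, which encodes CD20, had 834 and 797, 1852 and 1610, and 708 and 707 bp (-1.19 ± 0.16, adjusted p = 0.0015). At both genes immature B cells were the widest and did not overlap the others. Ptprc, which encodes CD45 with its B220 form, was the 1 region narrower than in plasma cells, with 1571 and 1269, 1873 and 1368, and 1100 and 921 bp (log2 difference from plasma cells -0.73, adjusted p = 0.0271). That call was lost without centring and without plasma cells 1, pc-BMACs 1 or pc-BMACs 2. Pax5 had a region at an end in at most 4 lists. Ebf1, Bach2 and Bcl6 had regions at their starts in all lists, with no call in any comparison. A second region, at the transcript end of Ebf1, was narrower in pc-BMACs than in immature B cells (-1.06, adjusted p = 0.0364). It had 276 and 371 bp in plasma cells, 554 and 388 bp in immature B cells and 290 and 150 bp in pc-BMACs, so pc-BMACs 2 was at the floor. How this call fared under the alternatives is not given. The count of narrower regions in the list was 3 without centring, 3 without pc-BMACs 2, 5 without pc-BMACs 1, 5 without immature B cells 1, 5 without a trend in the variance and 4 with the block by sample number.

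Of 21 regions at genes of antigen presentation, 2 were wider and 3 narrower in pc-BMACs than in immature B cells, counts close to what the background shares of 9.11% and 8.89% give for a list of that size. The 3 were the class II genes H2-Aa, H2-Ab1 and H2-Eb1, and the H2-Aa start had 365 and 333 bp in plasma cells, 1965 and 1549 bp in immature B cells and 464 and 563 bp in pc-BMACs (log2 difference from immature B cells -1.68, adjusted p = 0.00109). The 2 wider were Nlrc5, the regulator of class I genes, and the region beyond the transcript end of Psmb9, a subunit of the immunoproteasome. At Psmb9 immature B cells had 392 and 342 bp, plasma cells 1711 and 1666 bp and pc-BMACs 1832 and 1802 bp (log2 difference of pc-BMACs from immature B cells 2.41 ± 0.16, adjusted p = 0.000108). In 4 of 6 lists a peak lay within 1 kb of the Psmb9 end itself. The promoter that Psmb9 shares with the peptide transporter gene Tap1 had 1604 and 1504, 1883 and 1620, and 1804 and 1711 bp. There immature B cells and pc-BMACs overlapped, and plasma cells lay a little below both. Ciita, the regulator of class II genes, had no region of any list at its ends. Without pc-BMACs 2 or without immature B cells 2, H2-Aa was the 1 narrower region left and Psmb9 the 1 wider, and Nlrc5 also lost its call without pc-BMACs 1 and without centring.

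The other regions with the smallest adjusted p against immature B cells were, among the wider, the transcript end of Btd, which encodes biotinidase, and Tubb6, a beta tubulin. Btd had 1185 and 1095 bp in plasma cells, 511 and 565 bp in immature B cells and 4295 and 3249 bp in pc-BMACs, and Tubb6 had 1226 and 1194, 245 and 150, and 1367 and 1082 bp. The populations at Btd followed each other without overlap, while at Tubb6 only immature B cells stood apart. In 3 of 6 lists a peak lay within 1 kb of the Btd end itself. Among the narrower were Lrrc32, Slc37a2, Arhgef18, Fam43a and the sulfotransferase gene Chst7. Arhgef18 had 1411 and 1777, 3869 and 3742, and 613 and 440 bp (log2 difference from immature B cells -2.78 ± 0.19, adjusted p = 0.000108). At Arhgef18 and Chst7 plasma cells lay between the other 2 populations. At Fam43a, with 752 and 759, 3256 and 3055, and 707 and 671 bp, they lay near pc-BMACs.

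Genes of homing and survival had 21 regions at 17 of 22 genes. Of these, 6 were wider and 0 narrower in pc-BMACs than in immature B cells (9.11% and 8.89% of all constitutive regions). Against plasma cells 1 was wider (2.65% of all). That 1 was the transcript end of Tnfrsf13c, the receptor of the B cell survival factor BAFF, with 1251 and 1256 bp in plasma cells, 2270 and 1546 bp in immature B cells and 3816 and 3768 bp in pc-BMACs (log2 difference from plasma cells 1.36, adjusted p = 0.00262, and from immature B cells 1.11, adjusted p = 0.00127). The pc-BMACs overlapped neither population there. At the start of Cd9, a tetraspanin, plasma cells had 692 and 667 bp, immature B cells 367 and 150 bp and pc-BMACs 729 and 797 bp (log2 difference from immature B cells 1.79, adjusted p = 0.00359). A region that touches the chemokine receptor gene Ccr10 and Cntnap1 had 1231 and 1295, 810 and 622, and 1333 and 1307 bp (0.99, adjusted p = 0.00255), and immature B cells stood apart at both Cd9 and Ccr10. Of the markers of other cells with a region, Lat, an adaptor of T cell receptor signalling, had 725 and 661, 886 and 765, and 313 and 209 bp and was narrower in pc-BMACs than in plasma cells (-1.68, adjusted p = 0.0045). The calls at Cd9 and at Lat against plasma cells were lost without centring.

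Immediate early genes, which cells switch on within minutes of a stimulus or of handling, were listed after the values had been seen. Of the 35 genes 30 had a region, and the median of mean covered width was 3178.9 bp over their 32 regions against 1061.8 bp over all gene-end regions. Against immature B cells 9 were wider and 3 narrower in pc-BMACs, with a median of 0.34 (9.11% and 8.89% of all constitutive regions). Against plasma cells 5 were wider and 1 narrower, with a median of 0.30 (2.65% of all each way). Nfkbia, the inhibitor that NF-kB induces, had 2799 and 2900 bp in plasma cells, 2080 and 1612 bp in immature B cells and 7053 and 6913 bp in pc-BMACs, with log2 differences of 1.05 from plasma cells (adjusted p = 0.00937) and 2.03 from immature B cells (adjusted p = 0.000187). Egr3 had 2119 and 805, 5003 and 3290, and 13318 and 13156 bp, and Btg2 had 2451 and 2384, 2442 and 2381, and 7038 and 7018 bp. At all 3 genes pc-BMACs stood above both other populations, and at Egr3 and Btg2 2 of 6 lists had a peak of their own within 1 kb of the gene end. Klf2, which keeps lymphocytes quiescent, went the other way, with 3099 and 2854, 3091 and 2649, and 1521 and 1426 bp (log2 difference from plasma cells -1.25, adjusted p = 0.00354). At Klf2 the call against plasma cells was lost without centring (-1.01). At Egr3 the calls were lost without centring, and that against immature B cells also without immature B cells 1, immature B cells 2 or pc-BMACs 2. Nfkbia and Btg2 lost their calls against plasma cells without pc-BMACs 2. Time from dissection to lysis is not given in the sources used here, and its part in these widths was not tested. The count of wider regions against plasma cells was 2 without pc-BMACs 2 and 0 with the block by sample number, and that against immature B cells was 5 without centring, 6 without pc-BMACs 1 or immature B cells 2 and 5 with the block.

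Between plasma cells and immature B cells, 466 regions passed, 258 wider and 208 narrower in plasma cells (4.84%). The background was 8.13% of all constitutive regions (4.35% wider and 3.78% narrower), and 11.1% passed away from gene ends. Without centring the count was 105, with 24 wider and 81 narrower, and the median difference of 0.10 became -0.23, since library medians of plasma cells were lower by 0.34 on the log2 scale. With the block by sample number 2 passed, and without plasma cells 1 the count was 303 (128 wider, 175 narrower). Without immature B cells 1 there were 232 wider and 91 narrower, without immature B cells 2 162 and 156, and without plasma cells 2 169 and 218. The excess of wider regions was gone with quantile normalisation (220 and 221), without a trend in the variance (183 and 186) and with only the 4 libraries compared (182 and 194). The wider regions with the smallest adjusted p were Tubb6, Psmb9, Herpud1, Niban1 and the region near the transcript end of Lor, which encodes the skin protein loricrin. At Lor immature B cells had 257 and 258 bp, plasma cells 1337 and 1283 bp and pc-BMACs 1429 and 1521 bp (log2 difference of plasma cells from immature B cells 2.68 ± 0.21, adjusted p = 0.000424). Both CD138+ populations stood apart from immature B cells at Lor and at Niban1.

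The narrower ones were Dus2, E2f3, Dtx1, Il21r and Tspoap1. Il21r, the receptor of interleukin 21, had 1094 and 752 bp in plasma cells, 5887 and 5753 bp in immature B cells and 1367 and 935 bp in pc-BMACs (log2 difference of plasma cells from immature B cells -2.35 ± 0.22, adjusted p = 0.000851). Dtx1, a ubiquitin ligase of the Notch pathway, had 323 and 352, 2140 and 2050, and 530 and 403 bp (-2.30 ± 0.20, adjusted p = 0.000694). Immature B cells stood alone at both. Over all constitutive regions 4.35% were wider and 3.78% narrower. Of the lists, plasma cell genes had 6 wider and 0 narrower regions (median 0.54), B cell identity genes 0 wider and 6 narrower (median -0.28) and secretory genes 5 wider and 0 narrower (median 0.29). Without centring these became 1 wider (0.21), 2 narrower (-0.61) and 1 wider, with a secretory median of -0.04. Without plasma cells 1 they were 3, 2 and 2, without plasma cells 2 they were 4, 4 and 2, without immature B cells 1 they were 1, 1 and 3, without immature B cells 2 they were 3, 4 and 3, and with the block by sample number none passed. Without either pc-BMAC library the secretory count was 3.

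Regions at transcript ends varied more than those at starts. Of the 516 at a transcript end without a start, 27 (5.23%) were wider and 15 (2.91%) narrower in pc-BMACs than in plasma cells, and the 6817 at a start without an end had 86 (1.26%) and 52 (0.76%). Against immature B cells the shares were 14.53% wider and 11.43% narrower at transcript ends, and 5.16% and 3.27% at starts. The median absolute difference against immature B cells was 0.38 at transcript ends and 0.18 at starts. Pairs of opposite starts varied least, with 3.36% wider and 1.01% narrower against immature B cells. Transcript end regions were also narrower, and neither these differences between kinds of end nor the part of width in them was tested.

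Of 29 housekeeping reference genes 27 had a region. Of their 32 regions, 4 were wider and 0 narrower in pc-BMACs than in immature B cells, and 2 were wider and 0 narrower than in plasma cells. Over all constitutive regions, 9.11% were wider and 8.89% narrower than in immature B cells, and 2.65% passed each way against plasma cells. At these shares a few calls are due on a list of this size in any case. Polr2a, the large subunit of RNA polymerase II, had 1716 and 1720 bp in plasma cells, 1878 and 1764 bp in immature B cells and 1970 and 1769 bp in pc-BMACs, and Hprt had 849 and 908, 948 and 887, and 1102 and 956 bp. Plasma cells were lowest at Polr2a and pc-BMACs highest by a little at Hprt, and no comparison passed at either. Actb, the beta actin gene, had 2931 and 2169, 5391 and 3973, and 8224 and 10604 bp, so that pc-BMACs were wider than plasma cells by 1.65 ± 0.26 (log2, SE; adjusted p = 0.00894) and than immature B cells by 1.11 ± 0.26 (adjusted p = 0.0169). Gapdh, of glycolysis, had 2062 and 2789, 1856 and 1439, and 3027 and 2912 bp and was wider in both CD138+ populations than in immature B cells (log2 0.96 for pc-BMACs, adjusted p = 0.00664, and 0.89 for plasma cells, adjusted p = 0.02). Without centring or without pc-BMACs 2 neither Actb call nor the Gapdh call of pc-BMACs held, and the Actb call against immature B cells and the Gapdh call of plasma cells were also lost without immature B cells 1 or immature B cells 2. Tubb5, a beta tubulin on the housekeeping list, had 1269 and 774, 1208 and 1152, and 2417 and 2449 bp, and its call against plasma cells (1.06, adjusted p = 0.0358) held in 4 of 15 alternatives. B2m and Tbp passed in no comparison.

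The Aire locus stood out by 1 library. Aire, whose activity the reporter GFP reads, had a region over its start with 2659 and 4538 bp in plasma cells, 2715 and 3533 bp in immature B cells and 4421 and 4419 bp in pc-BMACs. The populations overlapped, since plasma cells 2 was the widest of the 6 libraries, and pc-BMACs minus plasma cells was 0.11 ± 0.32 (log2, SE; adjusted p = 0.891). A second region over the gene body and the transcript end had 1879 and 17233, 2492 and 2985, and 1180 and 2660 bp, with plasma cells 2 far above the other 5. Neither region passed in any comparison. With the block by sample number the start region passed against immature B cells (0.97).

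The same library had wide peaks over the neighbours of Aire. The region of Pfkl, a phosphofructokinase gene, and Cfap410 had 6991 and 37127 bp in plasma cells, 10213 and 15995 bp in immature B cells and 6957 and 11350 bp in pc-BMACs. That of Icosl, a costimulatory ligand gene, had 4472 and 12746, 2765 and 2617, and 3469 and 12559 bp. Within 100 kb of the Aire start, peaks of plasma cells 1 and 2 covered 16.76% and 59.8% of the bases, those of immature B cells 18.44% and 22.41%, and those of pc-BMACs 16.13% and 25.92%. From 100 to 500 kb on either side no library was above 6.38%. So all 6 libraries had dense peaks around Aire, and plasma cells 2 had the densest. In plasma cells 2, 6 of the 10 widest peaks of the whole list lay there, against at most 1 in every other library. Peaks of the transgenic copy and of the endogenous locus cannot be told apart, and values of Aire and its neighbours are given for each library for that reason.

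**Figure D5:**
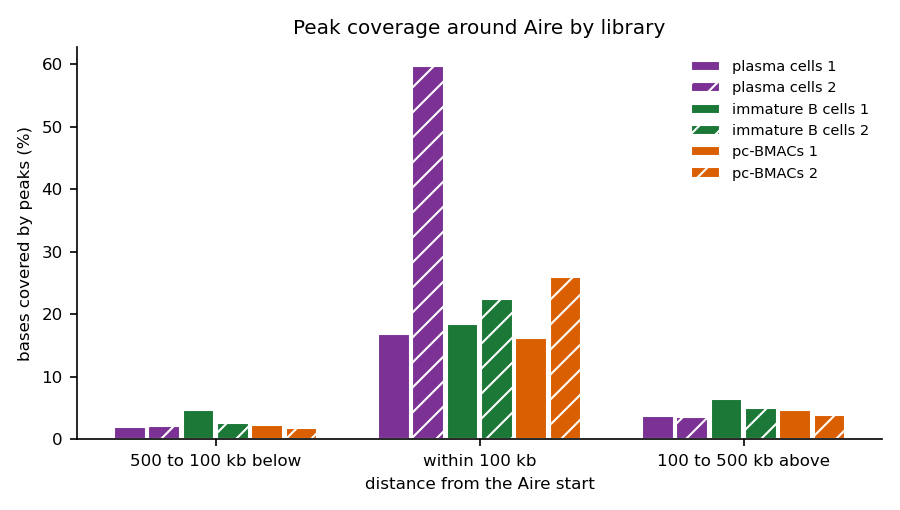
Percentage of bases under peaks within 100 kb of the Aire start and in the flanks from 100 to 500 kb below and above it, with 1 bar per library (hatched for library 2 of a population). Plasma cells 2 reaches 59.8% near Aire, the other libraries lie between 16.13% and 25.92% there, and the flanks lie at or below 6.38%.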

How the data were processed

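ATAC-seq gave 6 peak lists, 2 from each sorted population. The authors deposited 1 list per library, on mm10 per the labels. The submitters' processing notes list Bowtie2 2.3.3, HOMER 4.10 and bedtools. The names of the deposited lists call them intersected peaks. What was intersected is not stated, so a list may not be an independent call on 1 library, which bears on covered width and on the spread between libraries. The sources used here give neither peak settings nor the platform of each library, of which there was more than 1. The deposited score column held 1000 in every row and was not used. Start and end positions are the other deposited values, and the files give no reads, so depth is unknown and no depth-based interval is given.

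The members and gene lists were chosen with earlier results of these data known. Regions were merged, and gene ends taken from a RefSeq table (GRCm38.p6) with strand for genes of its promoter table, which holds none of chromosome 18. Covered widths were compared on the log2 scale with limma 3.58.1 (R 4.3.3, empirical Bayes with trend), 1 model over all 6 libraries, each centred on its median over all 20468 constitutive regions, with Benjamini-Hochberg adjustment over these and a threshold of 0.05. The script was tested on simulated data. An exact test over 2 against 2 libraries cannot go below p = 0.333. List members are described by counts and medians.

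Named regions were, per comparison and direction, the 5 with the smallest adjusted p, the 10 widest and 3 narrowest, up to 4 genes with and 3 without a region per list, a set of lineage, reporter and reference genes, the regions touching most genes and those nearest the distance limit. Other list genes named beyond these, including Txndc5, H2ac4, Hspa5, the class II, homing and immediate early genes and Tubb5, were chosen after their values were seen. Some items are not reported here.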

Additional observations from a re-analysis of the deposited data

How the results depend on the processing

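The number of gene-end regions (9627) stayed within 1.5 times under every alternative, from 7055 when peaks had to cover 50% of a region to 10316 within 2 kb, and from 9623 to 9776 when 1 library was left out. The share of protein-coding genes with a region (48.77%) was 37.44% at 50% coverage, 47.63% with the 34070 widest peaks of each list, 38.81% with the 17035 widest, 46.93% within 500 bp, 51.31% within 2 kb, 44.2% for regions overlapping the gene end, 47.48% for bases covered in all lists, and 48.58% to 49.27% without 1 library. In the same order without the last 2 settings, the share at gene starts (93.51%) was 95.86%, 94.43%, 96.77%, 95.16%, 91.11% and 97.66%, and the share touching 2 or more genes (19.14%) was 20.86%, 19.48%, 21.68%, 17.28%, 22.99% and 15.21%.

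Counts of called regions depended on centring and on single libraries. Without centring they were 40 for pc-BMACs against plasma cells, 363 against immature B cells and 105 for plasma cells against immature B cells, where the main counts were 277, 967 and 466. Leaving out 1 library gave 80 to 303, 484 to 1057 and 303 to 387. With 1 library left in a group, its spread is taken to be that of the others. A replicate block by title number gave 235, 930 and 422, and one by the number in the descriptions gave 0, 403 and 2. Same-numbered libraries deviated together weakly, with correlations of -0.002 to 0.11 for title numbers and 0.002 to 0.11 for description numbers over 20468 regions. With 2 libraries per group the deviations mirror each other, so these values cannot tell whether either number marks pairs. The labels give no shared animal or day, and the numbers were not taken as pairs. The main fit left 3 residual degrees of freedom, and the block by description number leaves fewer. No description number occurs in every population, so block and population are partly mixed. Whether the lower counts under this block come from a batch or from the block itself cannot be told. The cause of the shifts in the counts was not tested. Over the 30 differences of the named regions, 411 of 432 checks kept direction and call, 21 lost the call, 18 of them in the block by description number, and 0 reversed. Over 38 further calls, most of them named in the text, 454 of 558 checks kept the call and 0 reversed. Some of these calls, such as those at Dusp2 and Ube2j1, are not described above, and the call at the Ebf1 transcript end is not among them. Unknown depth limits all widths, since fewer reads can give narrower or missing peaks.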
